A study of Mus musculus with 6 samples.

Results

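The secreted fibroblast growth factors Fgf3, Fgf4, Fgf5, Fgf8, Fgf15 and Fgf17 and the receptors Fgfr1, Fgfr2, Fgfr3 and Fgfr4 were followed in day 2 epiblast-like cells (EpiLCs). The 10 genes were chosen by symbol from 24288 gene symbols, with 1 table entry per gene, namely the entry with the most reads over the 6 libraries. The wild-type (WT) group held 3 RNA-seq libraries of the CCE embryonic stem cell (ESC) line on the 129/Sv//Ev background. The Smad2/3 double knockout (DKO) group held 3 libraries of clone KT15.1F6, made by deleting exon 1 of Smad3 in a Smad2-deficient line of the same background, so that both transducers of Nodal and activin signals are missing. Both groups had been kept as ESCs in medium with LIF, 1 μM PD0325091, which blocks Mek and thereby Erk, and 3 μM CHIR99021. Both then received 12 ng/ml Fgf2 and 20 ng/ml activin A with serum replacement (KSR) on fibronectin for 48 h. Added Fgf2 was thus present in every culture. The libraries of a genotype are separate differentiations of 1 line, and a difference between the lines that has nothing to do with Smad2/3 cannot be told apart from the knockout.

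Fgf ligands bind receptor tyrosine kinases on the cell surface together with heparan sulfate chains, and the activated receptors signal through adaptor proteins to Ras and Erk. Around implantation Fgf4 is the ligand of the epiblast lineage and acts on primitive endoderm and on the trophoblast next to the epiblast, where Fgfr2 is the best known receptor. Fgf5 is a classical marker of the epiblast after implantation, and Fgf8 is made in the primitive streak, where Fgfr1 is needed for mesoderm to move away. Endocrine ligands such as Fgf15 and Fgf21 bind heparan sulfate weakly and use the Klotho proteins as co-receptors.

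Counting each gene once, the recovered depth of a library lay between 57644143 and 63046034 reads. The median coefficient of variation over well-detected genes was 3.16% in WT and 3.07% in DKO. Values are normalized reads, that is, reads over the gene body divided by a size factor of the library. Introns were taken to be part of the gene body, which the sources used here do not state, and values per kilobase of gene body rest on this reading. Values per kilobase of exons divide the same reads by exon length alone, so on this reading they still hold intron reads. Smad3 averaged 839 normalized reads in WT and 23.6 in DKO, whereas Smad2 averaged 4520 and 5062, so the gene-body count does not show the Smad2 lesion. Of 6 epiblast markers, Pou3f1 (-0.62) and Sox3 (-0.82) were lower on the log2 scale, Sox2 (1.47) was higher, and Pou5f1 (-0.07), Otx2 (0.23) and Dnmt3b (-0.11) were not called. Naive markers summed to 2905 to 3096 normalized reads in WT and 4794 to 4868 in DKO, and 5 of 6 were called higher. By the rule given below, 8.03% of all genes were called lower and 7.34% higher. In bulk RNA, fewer cells of a type and less RNA per cell cannot be told apart, and this holds for each difference given here.

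Of the 10 genes, 3 ligands were lower in DKO and 2 receptors were higher, and all 10 passed the filter on low values. Fgf5, Fgf8 and Fgf15 fell, Fgfr2 and Fgfr4 rose, and Fgf3, Fgf4, Fgf17, Fgfr1 and Fgfr3 did not pass the thresholds. A gene was called changed at a limma adjusted p under 0.05 and a fold change over 1.5. Among all 17038 genes tested, 15.4% were called, 8.03% as lower and 7.34% as higher. Over all 25361 table entries tested, some genes having several, the shares were 7.98% lower and 7.41% higher. The median log2 fold change was -1.17 over the 6 ligands and 0.65 over the 4 receptors, against 0.00012 over all genes tested. With the adjusted p alone, 53.6% of all genes passed (26.5% lower, 27.1% higher), and so did 7 of the 10, since Fgf4 and Fgfr1 joined them.

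**Figure D1:**
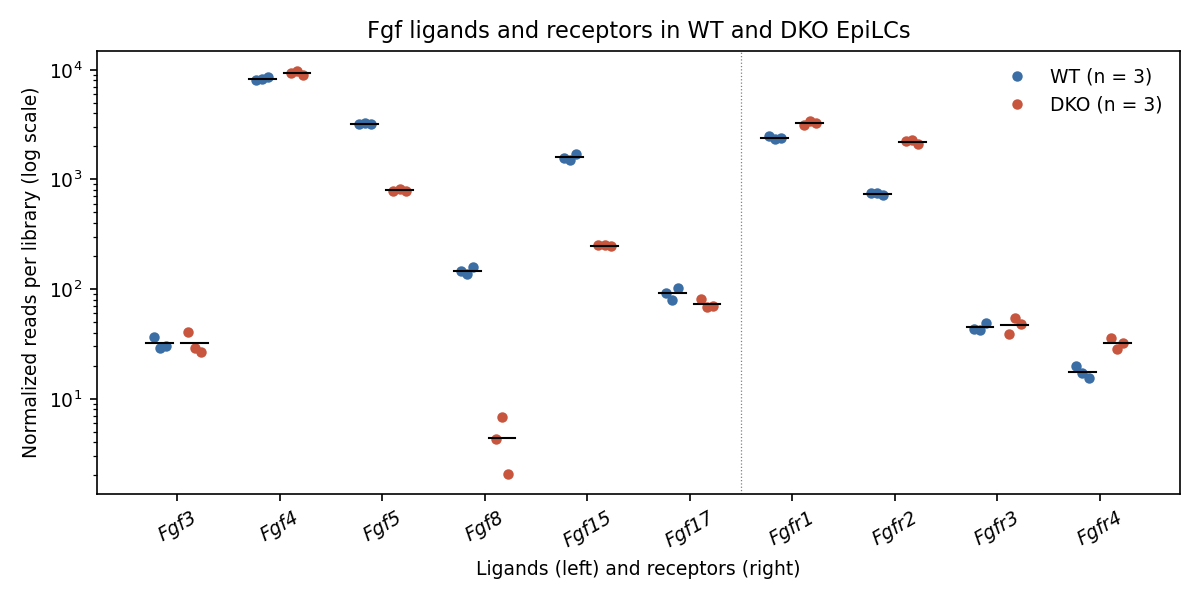
Normalized reads of the 6 ligands and 4 receptors in each library, on a logarithmic axis, with WT in blue, DKO in red and a black line at each group mean (n = 3). Fgf5, Fgf8 and Fgf15 have every DKO library below every WT library, and Fgfr1, Fgfr2, Fgfr4 and Fgf4 have every DKO library above.

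Fgf4 (NM_010202, chromosome 7, 144861386 to 144865245, mm10) was the most abundant ligand in both genotypes. It measured 8015, 8206 and 8579 normalized reads in WT and 9441, 9779 and 8945 in DKO. Every DKO library lay above every WT library, by 1.14-fold on average. The log2 fold change was 0.18 ± 0.03 (SE, adjusted p = 7.91e-06), with a 95% interval of 1.09- to 1.18-fold that stays below the threshold. Per kilobase of gene body, Fgf4 stood above 99.0% of ranked genes in WT and above 99.2% in DKO. Ranked were the 16257 tested genes with a known position and a length of at least 0.5 kb. This scale favours genes with little intron, and exons make up 3.03 of the 3.86 kb of Fgf4.

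Fgf5 (NM_010203, chromosome 5, 98254184 to 98277033) gave 3226, 3250 and 3230 normalized reads in WT and 779, 823 and 791 in DKO. The groups were far apart and the spread within each was small, with a mean of 3235 ± 12.6 against 798 ± 23.0 (SD, n = 3 each). DKO cells thus held 24.7% of the WT level, a log2 fold change of -2.02 ± 0.04 (adjusted p = 5.09e-26). In DKO the gene nevertheless remained well detected, with 1447 to 1567 reads per library.

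Fgf15 (NM_008003, chromosome 7, 144896532 to 144900953) fell more steeply than Fgf5. Its levels were 1554, 1514 and 1700 normalized reads in WT and 252, 251 and 246 in DKO. The 3 DKO libraries were almost equal, and each lay far below the lowest WT library. The mean was 6.37-fold lower, a log2 fold change of -2.67 ± 0.05 (adjusted p = 5.06e-25). The antisense genes Gm26793 and Gm39119 overlap Fgf15. The libraries were made with a stranded kit, but the use of strand in counting was not stated. Overlapping entries on opposite strands differed widely in WT, with 3.14 normalized reads for Gm16159 inside Fgfr1 (2400). Oraov1, which overlaps Ccnd1 (8729), held 357. Whether reads of the antisense genes entered the Fgf15 values was not tested.

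Fgf8 (NM_010205, chromosome 19, 45736491 to 45742941) was the scarcest of the lowered ligands. WT libraries held 145, 136 and 158 normalized reads, and DKO libraries held 4.31, 6.83 and 2.07, which correspond to 8, 13 and 4 reads. DKO libraries were close to the limit of counting, and the mean was 3.01% of that of WT. The log2 fold change was -4.87 ± 0.26 (adjusted p = 2.62e-15). This value depends on the constant added before taking logarithms, and it became -3.45 when 10 was added in place of 1. Among mesoderm markers, which share the streak with Fgf8, T, Mixl1 and Tbx6 were lower and Eomes was higher, and the summed level of the 5 markers ranged from 378 to 414 in WT and from 490 to 542 in DKO. Most of this sum was Eomes, whose normalized reads averaged 305.5 for WT and 469 for DKO. DESeq2 called 2 mesoderm markers lower in place of 3, and of all genes limma called 8.03% lower and 7.34% higher. Mesp1 was at 8 reads or fewer in each library. Their part in the Fgf8 difference was not tested.

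Fgf17 (NM_008004, chromosome 14, 70636203 to 70642268) belongs to the same subfamily as Fgf8. It read 92.4, 79.1 and 102 in WT and 80.7, 68.3 and 70.5 normalized reads in DKO, and the groups overlapped. The log2 fold change of -0.31 ± 0.14 missed the threshold in limma (adjusted p = 0.0534), with a 95% interval from 0.664- to 0.977-fold.

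Fgf3 (NM_008007, chromosome 7, 144838612 to 144843348), a ligand known from inner ear formation, was low in both groups. It read 36.5, 29.0 and 30.4 in WT and 40.4, 28.9 and 27.0 normalized reads in DKO. The groups overlapped, and the log2 fold change was -0.01 ± 0.21 (adjusted p = 0.968). The 95% interval from 0.738- to 1.33-fold leaves room for moderate changes either way.

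Promoters are shown for Fgf4, Fgf5 and Fgf3, which include the most abundant ligand, the most abundant ligand that fell, and the scarce neighbour of Fgf4. Each is the 250 bases before the annotated start in RefSeq (GRCm38.p6), written 5′ to 3′ on the plus strand, and capitals mark the letters GGCGCC, a GC-rich motif of Smad proteins.
Fgf4, chr7:144861136-144861385: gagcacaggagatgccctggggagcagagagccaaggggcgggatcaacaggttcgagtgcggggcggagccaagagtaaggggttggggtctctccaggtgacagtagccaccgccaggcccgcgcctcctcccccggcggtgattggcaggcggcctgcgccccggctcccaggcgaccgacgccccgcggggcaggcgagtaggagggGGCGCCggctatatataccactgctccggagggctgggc
Fgf5, chr5:98253934-98254183: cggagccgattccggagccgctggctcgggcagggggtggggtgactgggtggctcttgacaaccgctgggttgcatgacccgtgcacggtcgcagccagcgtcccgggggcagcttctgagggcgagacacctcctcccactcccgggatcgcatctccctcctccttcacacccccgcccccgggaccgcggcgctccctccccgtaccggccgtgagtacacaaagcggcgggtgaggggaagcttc
Fgf3, chr7:144838362-144838611: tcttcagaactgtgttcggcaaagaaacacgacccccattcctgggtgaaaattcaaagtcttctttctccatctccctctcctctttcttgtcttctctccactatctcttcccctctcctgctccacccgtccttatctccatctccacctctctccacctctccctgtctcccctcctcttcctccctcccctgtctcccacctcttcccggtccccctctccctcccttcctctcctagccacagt

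The promoters of Fgf4 and Fgf5 were both rich in G and C (71.2% and 70.8%) and held 21 and 24 CpG pairs. The Fgf3 promoter had 55.2% G and C and 4 CpG pairs, near the medians of 52.4% and 6 over 32851 promoters. Promoter windows were found for 6 of the 10 genes, the others being Fgfr2, Fgfr3 and Fgfr4, and the Fgfr2 window starts 545 bases from the start of the counted entries. The motifs GTCTAGAC (the Smad palindrome), CAGACA (Smad), GGCGCC, AATNCACA (Foxh1), ATTTGCAT (octamer) and TCACACCT (T-box) were searched on both strands, from 250 bases before to 50 after the start. No match overlapped one of another motif. GGCGCC was found in Fgf4 and Fgfr3 and in 11.9% of all promoters. CAGACA was not found in these windows and occurs in 6913 of the 32851 promoters. The remaining motifs were not found either, and they occur in 0.213% (GTCTAGAC), 3.60% (AATNCACA), 1.74% (ATTTGCAT) and 1.28% (TCACACCT) of all promoters.

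Among the receptors, Fgfr2 (NM_010207, chromosome 7, 130162451 to 130266808) changed most. It measured 748, 749 and 715 normalized reads in WT and 2231, 2273 and 2122 in DKO. The lowest DKO library was well above the highest WT library, and the means differed 3.00-fold (log2 fold change 1.58 ± 0.04, adjusted p = 1.15e-22). Its splice forms IIIb and IIIc, which differ in the ligands they bind, share the gene body and cannot be told apart in these values. Trophoblast markers were also higher in DKO, in 6 of 6 tested genes (Cdx2, Gata2, Gata3, Tfap2c, Krt7 and Hand1), against 7.34% of all genes. The summed level of the 7 listed markers ranged from 121 to 151 in WT and from 604 to 740 in DKO, and Elf5 held at most 6 reads in any library. Tfap2c was the largest part of this sum, averaging 67.5 normalized reads in WT and 390 in DKO. Cdx2 averaged 13.3 and 38.6, and Hand1 averaged 4.32 and 15.2. Of 5 tested markers of extra-embryonic endoderm, Gata6 (1.18) and Pdgfra (1.16) were higher on the log2 scale, Gata4, Sox17 and Foxa2 were not called, and the summed level of the 6 listed ranged from 92.4 to 114 in WT and from 167 to 176 in DKO. Their part in the Fgfr2 difference was not tested.

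Fgfr1 (NM_010206, chromosome 8, 25518759 to 25575718) is the main receptor of the epiblast. WT libraries held 2494, 2315 and 2392 normalized reads and DKO libraries 3156, 3438 and 3253. The groups did not overlap, and the log2 fold change of 0.45 ± 0.04 was far above replicate spread (adjusted p = 1.01e-11). Fgfr1 did not count as changed, since its estimate of 1.37-fold lies under 1.5-fold. The 95% interval ran from 1.30- to 1.44-fold. An antisense gene, Gm16159, overlaps Fgfr1, and its own entry averaged 3.14 normalized reads in WT and 6.17 in DKO.

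Fgfr4 (NM_008011, chromosome 13, 55152818 to 55168759), the receptor that serves Fgf15 in the liver, was scarce. It read 19.9, 17.1 and 15.5 in WT and 36.1, 28.4 and 32.1 normalized reads in DKO, or 29 to 37 and 54 to 67 reads per library. All DKO libraries were higher, by 1.84-fold on average (log2 fold change 0.85 ± 0.23, adjusted p = 0.00244). The 95% interval is wide, from 1.30- to 2.48-fold.

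Fgfr3 (NM_001163215, chromosome 5, 33721724 to 33737068) was scarce as well, at 43.5, 42.1 and 49.6 normalized reads in WT and 38.7, 54.6 and 48.2 in DKO. The groups overlapped, and the log2 fold change was 0.05 ± 0.17 (adjusted p = 0.808, 95% interval 0.810- to 1.33-fold). A further annotated transcript on the other strand, G630022F23Rik, overlaps it.

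**Figure D2:**
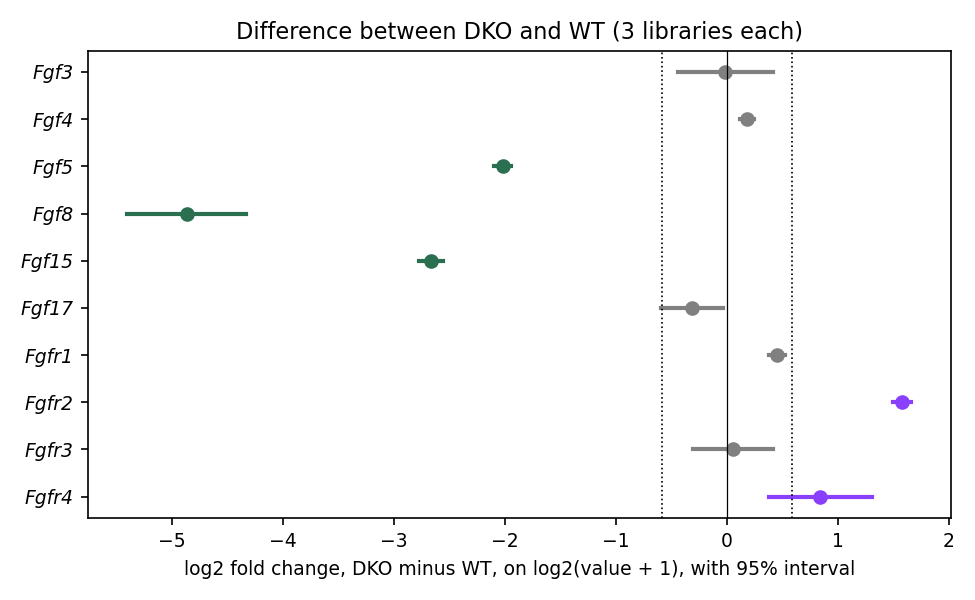
Log2 fold change of each gene, DKO minus WT, on the log2(value + 1) scale, with its 95% interval from limma (n = 3 per group). Dotted lines mark a 1.5-fold change. Fgf5, Fgf8 and Fgf15 (green) lie left of the lower line, Fgfr2 and Fgfr4 (purple) have estimates right of the upper line, and the genes in grey were not called.

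Levels can be compared between genes only per length. In WT, the order by normalized reads per kilobase of gene body was Fgf4 (2142 ± 74.4), Fgf15 (359 ± 22.2), Fgf5 (142 ± 0.553), Fgfr1 (42.1 ± 1.57), Fgf8 (22.7 ± 1.70), Fgf17 (13.04 to 16.9), Fgfr2 (7.06 ± 0.186), Fgf3 (6.75 ± 0.844), Fgfr3 (2.94 ± 0.259) and Fgfr4 (1.10 ± 0.140). Only Fgfr2 and Fgf3 overlapped their neighbour in this order. In DKO, Fgf4 stayed first at 2432 ± 109, Fgfr1 (57.6 ± 2.52) and Fgf15 (56.4 ± 0.736) overlapped each other, and Fgf5 (34.9 ± 1.01) and Fgfr2 (21.2 ± 0.749) came next. Fgf8 moved from rank 5 to rank 10, at 0.682 ± 0.369. Dividing by a length with introns gives low values for long genes. Per kilobase of exons, Fgf5 stood above Fgf15 in WT, at 1294 against 878, and Fgfr1 and Fgfr2 reached 478 and 154.

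The make-up of the ligand mRNAs shifted towards Fgf4. Per kilobase of gene body, Fgf4 made up 79.7% ± 0.434 of the summed level of the 6 ligands in WT and 95.6% ± 0.138 in DKO (SD, n = 3 each). The share of Fgf15 went from 13.4% to 2.22% and that of Fgf5 from 5.27% to 1.37%. Per kilobase of exons, the share of Fgf4 was 53.7% in WT and 85.7% in DKO. The summed ligand level per kilobase of gene body was 2687 ± 96.3 for WT and 2543 ± 111 for DKO libraries, which overlapped, or 0.946-fold. On the other scales the sum was lower in each DKO library, at 0.789-fold for unscaled reads (13068 to 13800 against 10081 to 10957) and 0.712-fold per kilobase of exons (4971 to 5253 against 3459 to 3753). The size of the difference in summed ligand level thus depended on the scaling for length. These shares were examined after the values of the genes were known and were not tested.

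The make-up of the receptor mRNAs shifted from Fgfr1 towards Fgfr2. Per kilobase of gene body, the share of Fgfr2 in the 4 receptors was 13.3% ± 0.540 in WT and 25.2% ± 0.848 in DKO, and that of Fgfr1 was 79.2% ± 0.424 and 68.7% ± 0.664. Without scaling for length, Fgfr2 made up 23.1% ± 0.809 of receptor reads in WT and 39.7% ± 1.04 in DKO, and Fgfr1 75.0% ± 0.756 and 58.9% ± 0.992. For both genes each DKO library lay beyond each WT library, and the exact permutation test (two-sided) gave p = 0.1, the smallest that 3 against 3 libraries allow. Fgfr1 remained the leading receptor in each of the 6 libraries. The share of Fgfr3 in receptor reads was 1.41% ± 0.135 in WT and 0.845% ± 0.121 in DKO, with p = 0.1 in the same exact test. Its own level differed little (45.1 and 47.2 normalized reads), so this lower share restates the higher reads of Fgfr1 and Fgfr2. The share of Fgfr4 was 0.545% ± 0.0569 in WT and 0.580% ± 0.0857 in DKO (exact p = 0.6).

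Within a library, the ratio of Fgfr2 to Fgfr1 does not depend on library scaling. Unscaled for length, it was 0.307 ± 0.0140 in WT and 0.673 ± 0.0293 in DKO, a 2.19-fold difference (log2 difference 1.13 ± 0.05, SE). The ranges were 0.299 to 0.324 and 0.652 to 0.707, and the exact permutation test (two-sided) again gave its smallest p of 0.1. Summed over the 4 receptors, the level per kilobase of gene body was 53.2 ± 1.71 in WT and 83.9 ± 3.16 in DKO, or 1.58-fold. It was 1.74-fold for unscaled reads and 1.75-fold per kilobase of exons, and on each of these scales every DKO library lay above every WT library.

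**Figure D3:**
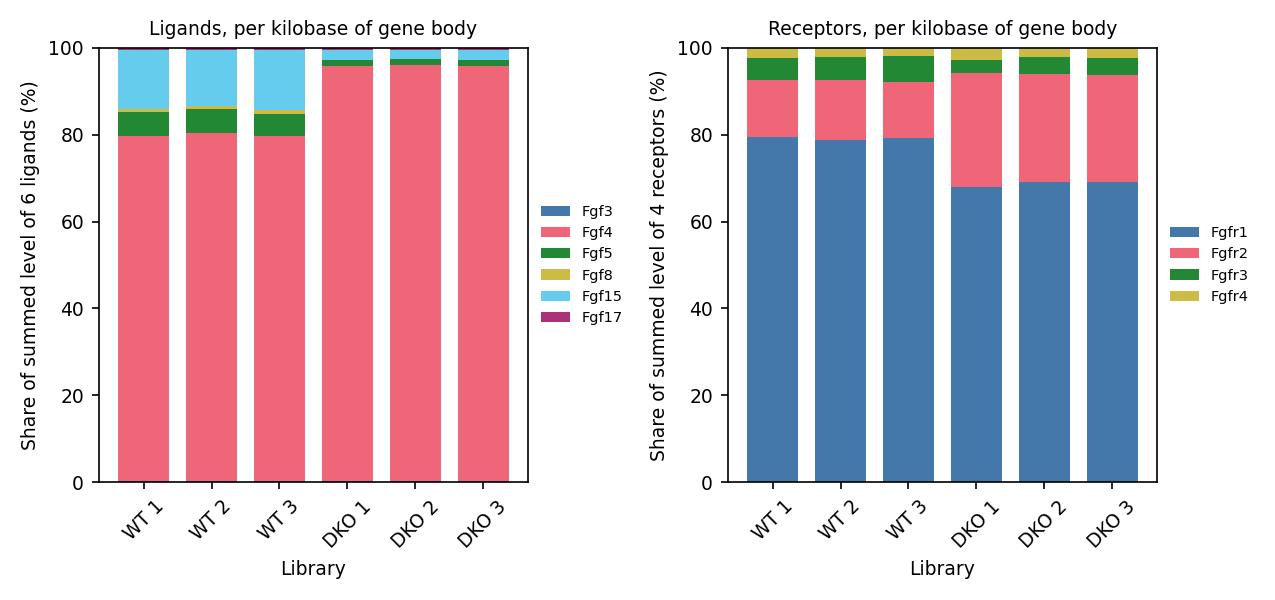
Stacked bars of the share of each ligand (left) and each receptor (right) in the summed level of its family, in percent, with levels taken per kilobase of gene body, for each of the 6 libraries. Fgf4 takes a larger share in the 3 DKO libraries (mean 95.6% against 79.7%), and Fgfr2 takes 25.2% against 13.3%.

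Fgf3, Fgf4 and Fgf15 form a cluster of paralogs on chromosome 7, all on the plus strand, with gaps of 18 kb between Fgf3 and Fgf4 and 31.3 kb between Fgf4 and Fgf15. They did not move together. The log2 fold changes along the cluster were -0.01, 0.18 and -2.67, and the ratio of Fgf4 to Fgf15 reads went from 5.21 ± 0.193 in WT to 37.6 ± 1.32 in DKO. On the far side of Fgf15, Oraov1 begins after 14.1 kb and Ccnd1, the cyclin D1 gene, after 29 kb, and their log2 fold changes were 0.01 and -0.01, neither called. Both changed sign around 0 in some alternatives, and their entries overlap each other. Within 500 kb of Fgf15, 12 other genes were tested, with log2 fold changes from -0.77 to 0.18, and 1 was called, the lower gene Shank2 at 470.5 kb.

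Fgf5 stood in a different setting. Of the 4 other genes tested within 500 kb, 3 were lower, against 8.03% of all genes. These were Antxr2 (-0.76 ± 0.16), Prdm8 (-1.38 ± 0.42) and 1700007G11Rik (-1.46 ± 0.09), on the log2 scale. 1700007G11Rik, which begins 52.1 kb after the end of Fgf5, fell from 392 to 143 normalized reads, while Prdm8 was scarce at 9.68 and 3.17. Prdm8 fell under the fold threshold when 10 was added before taking logarithms (log2 fold change -0.58). In the annotation other genes, among them Mir703, overlap the long 1700007G11Rik. Around Fgf8, 15 genes were tested within 500 kb, and apart from Elovl3 (-1.20 ± 0.35) they lay between -0.31 and 0.30, including Fbxw4 and Npm3 on either side. These neighbours were chosen after their values were seen.

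**Figure D4:**
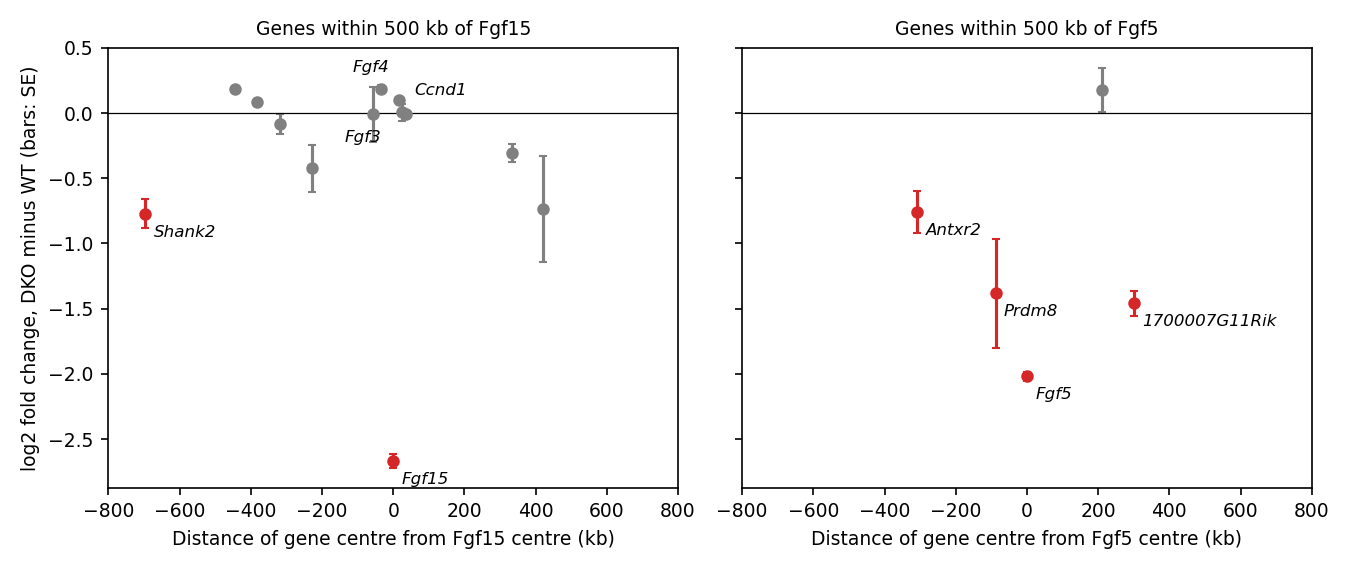
Log2 fold change (DKO minus WT, bars show SE) of the tested genes within 500 kb of Fgf15 (left) and Fgf5 (right), against the distance between gene centres in kb. Called genes are red. Fgf15 lies at -2.67 and its neighbours Fgf3, Fgf4 and Ccnd1 near 0, whereas Antxr2, Prdm8 and 1700007G11Rik near Fgf5 were also lower.

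Profiles most like those of Fgf5 and Fgfr2 were sought among the 11930 genes whose mean reached 100 normalized reads, by the Euclidean distance between centred log2(value + 1) profiles over the 6 libraries. For Fgf5 they were Pde1b (distance 0.0793), Fam19a4 (0.114) and Parp8 (0.122), with log2 fold changes from -2.02 to -2.01. For Fgfr2 they were Kremen1 (0.0635), Rbm47 (0.0837) and Glis3 (0.0954), with log2 fold changes from 1.56 to 1.57. With 2 groups, such likeness mainly reflects an equal difference between genotypes.

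Other secreted ligands were scarce. Of 12 listed, 7 could be tested, and Fgf9 and Fgf21 were lower and Fgf10 higher, against 8.03% and 7.34% of all genes. Fgf21, an endocrine ligand, averaged 17.1 ± 2.86 normalized reads in WT and 2.26 ± 1.97 in DKO (-2.74 ± 0.49 on the log2 scale, adjusted p = 2.40e-05). It remained called in each alternative, but the log2 value ran from -4.00 when 0.1 was added to -1.15 when 10 was added. Fgf9, which signals mainly to mesenchyme, went from 39.6 ± 3.60 to 21.7 ± 5.96 (-0.87 ± 0.22, adjusted p = 0.00137). Fgf10 averaged under 10 normalized reads in both groups, and its call was lost in edgeR, in DESeq2 and without WT replicate 2 (log2 fold change 0.76), WT replicate 3 or any of the 3 DKO libraries. Endogenous Fgf2, the factor added to the medium, had at most 7 reads in any library. Fgf18 (69.9 normalized reads in WT and 56.8 in DKO) was not called, and neither was Fgf1 (log2 fold change 0.00188), which overlaps Arhgap26.

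Of the 4 intracellular homologous factors, which are not secreted and do not act through Fgf receptors in the usual way, Fgf14 was lower (110 normalized reads in WT and 62.6 in DKO, -0.79 ± 0.13 on the log2 scale, adjusted p = 1.20e-05), and this gene overlaps Itgbl1. Fgf11, Fgf12 and Fgf13 were not called, and of all genes 8.03% were called lower. Fgf11 was called as lower without DKO replicate 2 (-0.63).

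The Klotho co-receptors of endocrine ligands moved in opposite directions. Kl, which pairs with Fgfr1 to receive Fgf23, averaged 54.7 ± 4.35 normalized reads in WT and fell to 4.73 ± 1.33 (-3.31 ± 0.27 on the log2 scale, adjusted p = 2.87e-11, and -2.14 when 10 was added before taking logarithms). Klb, which pairs with Fgfr4 and Fgfr1 to receive Fgf15 and Fgf21, rose from 21.9 ± 2.32 to 91.3 ± 14.0 in the same units (2.01 ± 0.18, adjusted p = 1.27e-10). The highest Kl value in DKO was 5.78 and the lowest in WT was 50.5, while Klb ranged from 19.3 to 23.9 in WT and from 75.2 to 99.8 in DKO. Thus the mRNAs of 2 endocrine ligands, Fgf15 and Fgf21, were lower in DKO, and those of the co-receptor Klb and the receptor Fgfr4 were higher. Fgfrl1, a receptor without a kinase domain, and the carrier Fgfbp1 were not called, at log2 fold changes of 0.18 and -0.19.

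Heparan sulfate core proteins, which carry the chains that hold ligands at the receptor, were called in 4 of 12 cases, with 3 higher and 1 lower, against 7.34% and 8.03% of all genes. Sdc4 averaged 1701 ± 70.8 normalized reads in WT and rose to 3675 ± 64.7 (1.11 ± 0.03 on the log2 scale, adjusted p = 7.64e-21). Gpc4, a glypican, rose from 426 ± 55.1 to 906 ± 32.1 (1.09 ± 0.07). Hspg2, the basement membrane protein perlecan, rose by 0.61 ± 0.04 and fell below the fold threshold without WT replicate 2 (0.57) or DKO replicate 3 (0.55). Sdc2 was lower, at -0.64 ± 0.05.

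Of 21 tested enzymes that build or edit heparan sulfate, 4 were higher and 2 lower, against 7.34% and 8.03% of all genes. Hs6st2, a sulfotransferase acting on the 6-O position, averaged 1282 ± 11.9 normalized reads in WT and fell to 771 ± 55.2 (-0.73 ± 0.05 on the log2 scale, adjusted p = 2.04e-13). Hpse, the heparanase that cleaves the chains, rose from 45.3 ± 8.66 to 85.3 ± 9.06 (0.91 ± 0.16), Hs3st4 rose by 0.80 ± 0.07 and Extl1 by 0.66 ± 0.14. The calls of Hs3st3b1 (higher) and Hs3st5 (lower) were lost without single libraries. For Hs3st3b1 these were WT replicate 1 (0.36) and DKO replicate 2 (0.50), and for Hs3st5 they were WT replicate 3 (-0.52) and DKO replicate 2 (-0.52). For both, adding 10 before taking logarithms had the same effect, and Hs3st3b1 was not called in DESeq2 either (adjusted p = 0.0525).

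Adaptors and proximal effectors of the receptors, such as Frs2, Grb2, Gab1 and Ptpn11, were not called in 10 of 10 cases, against 15.4% of all genes called. With limma 7 of the 10 had an unadjusted p under 0.05 and 7 passed the adjusted p alone, as did 53.6% of all genes, and edgeR and DESeq2 each called 0. Their log2 fold changes ranged from -0.20 to 0.50. Of 16 feedback and target genes of Erk, 2 were lower and 3 higher, against 8.03% and 7.34% of all genes. Il17rd, a membrane inhibitor of Fgf signalling, fell by 1.00 on the log2 scale and Spry3 by 1.07, while Spry4 rose by 0.81, Egr1 by 0.81 and Fos by 1.93. Dusp6 and Etv5, both commonly used as readouts of Erk, were not called, at -0.30 and 0.06. Both passed the limma adjusted p alone (4.11e-10 and 0.0287). Dusp6 was lower in each DKO library (4305 to 4419 normalized reads against 5204 to 5448 in WT). Of the 16 genes, 12 passed the adjusted p alone, against 53.6% of all genes.

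**Figure D5:**
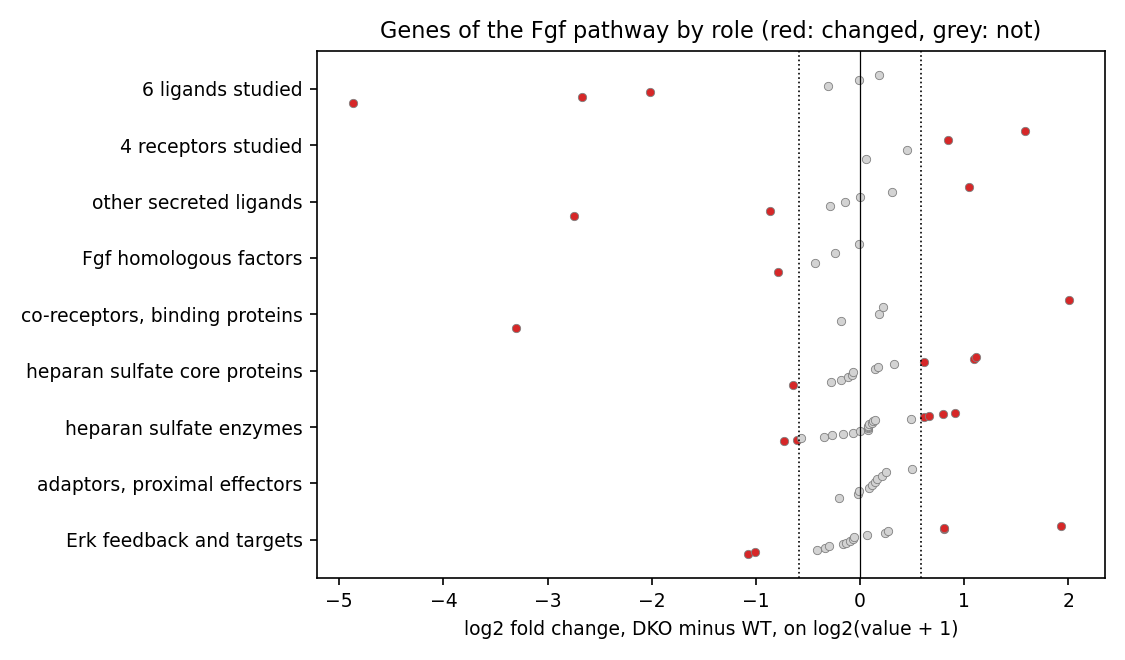
Log2 fold change (DKO minus WT, on the log2(value + 1) scale) of each tested gene of the Fgf pathway, grouped by role. Red points were called and grey points were not, and dotted lines mark a 1.5-fold change. None of the 10 adaptors was called by limma, while Kl at -3.31 and Klb at 2.01 lie at opposite ends of their group.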

How the data were processed

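RNA depleted of ribosomal RNA was sequenced in 6 libraries. The authors removed ribosomal reads with bowtie2, aligned the rest to mm10 with STAR, dropped PCR duplicates using SAMtools and assigned reads to the gene bodies of refGene. Software versions are not given in the sources used here. The authors' deposited table holds a signal, that is, the count of each entry over the size factor of its library, without scaling for length. All 6 columns of values were used. The deposited comparison table (fold changes, Wald statistics and p-values of the authors' own DESeq2 fit) was not used. Every value was a whole multiple of 1 read (100% of values per library within 0.001), which gave back the reads. The 138 rows without a symbol were left out, and their share of reads lay between 0.500% and 0.532% per library.

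The test was limma (version 3.58.1, R 4.3.3) with a mean-dependent variance trend on log2(value + 1), two-sided, over the 25361 entries that passed filterByExpr of edgeR (version 4.0.16), with Benjamini-Hochberg adjustment over all of them. Fold changes are on this scale, which understates changes of genes with few reads. Calls needed an adjusted p under 0.05 and a fold change over 1.5. Receptor shares and the ratio of Fgfr2 to Fgfr1 were compared by exact permutation tests, and ligand shares, other ratios and sums were not tested. Sums per kilobase of exons were added after seeing the data. The fit was checked on simulated data. Alternatives were edgeR and DESeq2 (version 1.42.0) on recovered reads, TMM factors, other added constants, no filter, 1 entry per gene, a replicate block, no fold threshold, other length scalings and the removal of each library. Replicate pairs differed by 3.44 to 5.64 times the sampling variance, so each library was counted as a separate sample. Positions came from RefSeq on GRCm38.p6, the assembly of mm10, and strands and overlaps from GENCODE.

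The genes studied, the lists and the tests were chosen with earlier results of these data known. Named are the 10 genes, Smad2, Smad3, called genes of the pathway lists (at most 4 per list by size of change), other ligands with at least 10 normalized reads, and the 3 profiles nearest to Fgf5 and to Fgfr2. Any further gene, marker or neighbour was chosen after its values were seen, or to name the content of a list. Reads are not independent molecules, so errors cover counting and replicate spread only.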

Additional observations from a re-analysis of the deposited data

How the results depend on the processing

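For each of the 10 genes 14 alternatives that kept the fold threshold were run. None of them changed a call, and the number of called genes was 5 of 10 in each, against 7 without a fold threshold. Only Fgf3 and Fgfr3, which were not called, changed sign, and only when 1 library was left out (log2 fold changes from -0.18 to 0.10 and from -0.056 to 0.19). Leaving out 1 library gave -2.042 to -2.002 for Fgf5, -5.19 to -4.51 for Fgf8, -2.70 to -2.62 for Fgf15, 1.56 to 1.61 for Fgfr2 and 0.76 to 0.94 for Fgfr4. Without a fold threshold 13977 entries passed in place of 3904, which follows from how that setting is built, while the count was 3942 with edgeR, 3714 with DESeq2 and 3832 to 3895 without single libraries. Same-numbered WT and DKO libraries did not deviate together (correlations of 0.00881, -0.0293 and 0.0365 over 11930 genes), so the numbers were not used as pairs. With a replicate block 3913 entries and the same total of 5 of the 10 genes were called.

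Per kilobase of gene body in place of reads, the DKO minus WT difference in share was -10.5 percentage points for Fgfr1 in place of -16.1, 12.0 for Fgfr2 in place of 16.6, -1.86 for Fgfr3 in place of -0.564 and 0.360 for Fgfr4 in place of 0.0344, since long genes weigh less. Without single libraries these differences ranged from -16.5 to -15.5, from 16.0 to 17.1, from -0.613 to -0.487 and from -0.00586 to 0.0794, the last changing sign without DKO replicate 1. The log2 difference of the Fgfr2 to Fgfr1 ratio ranged from 1.10 to 1.17. Values near 0 that were not called also changed sign. Fgf1 was at -0.00395 with TMM factors and Oraov1 at -0.000845 with edgeR, and without single libraries Fgf1 ranged from -0.0990 to 0.122, Fgf13 from -0.0976 to 0.0672, Oraov1 from -0.0229 to 0.0452 and Ccnd1 from -0.0141 to 0.00706. Depth limits Fgf8, Fgf21 and Kl in DKO, and Fgf10 and Prdm8, each at or below about 10 normalized reads.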
